A study of Mus musculus with 3 samples.

Results

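A set of 10 genes for cell surface proteoglycans was examined in untreated mouse melan-a cells. They were chosen by name as the syndecans *Sdc1*, *Sdc2*, *Sdc3* and *Sdc4*, the glypicans *Gpc1*, *Gpc3*, *Gpc4* and *Gpc6*, and the chondroitin sulfate proteoglycans *Cspg4* and *Cspg5*. The rule names genes and uses no measured value, but the genes were chosen with earlier results of these data known. All 10 were found among the 22698 genes of the files. Melan-a is an immortalized melanocyte line of C57BL/6J background, and the labels describe these cells as melanocytes of Ink4a-ARF-/- mice, so the loss of this tumor suppressor locus is shared by every sample. The cells were grown in serum with a phorbol ester and cholera toxin, which are both mitogens for melanocytes. RNA-seq was performed on 3 replicates, labelled 1, 3 and 4, each sequenced on 3 lanes. There is 1 condition and 1 line, so no group of samples could be compared with another. The labels call the samples bioreplicates but do not say how they were separated, so p-values measure only the spread between these 3 samples.

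Proteoglycans are proteins that carry long sulfated sugar chains, called glycosaminoglycans. Syndecans cross the membrane and end in a short cytoplasmic tail that binds scaffold proteins, whereas glypicans are held on the outer face of the membrane by a lipid (GPI) anchor. Both carry mainly heparan sulfate, whose sulfated stretches bind growth factors, morphogens and matrix proteins and present them to signalling receptors. CSPG4, also known as NG2 or the melanoma-associated chondroitin sulfate proteoglycan, is a transmembrane proteoglycan best known from melanoma cells, pericytes and oligodendrocyte progenitors, and CSPG5 (neuroglycan C) is best known from brain.

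Values are FPKM as deposited, which are read counts scaled by gene length and library size, so levels of different genes can be set side by side per length. The scaled library size, recovered from short genes whose values must correspond to whole reads, came to 53800000, 46900000 and 66300000 reads for replicates 1, 3 and 4. Of 9 melanocyte markers, 8 were at 1 FPKM or more in every replicate, led by *Tyrp1* (3144 ± 434 FPKM, SD, n = 3), *Dct* (1412 ± 96.3) and *Mlana* (578 ± 52.2), while the growth factor receptor gene *Kit* had 0.68 ± 0.0954 FPKM. No keratinocyte marker of 6, no pericyte marker of 5, no endothelial marker of 4 and no immune marker of 4 reached 1 FPKM in every replicate. Their summed levels lay at 0.36 to 0.7, 0.37 to 0.52, 0.01 to 0.03 and 0.76 to 1.6 FPKM, the last almost wholly from *Cd68* (1.187 ± 0.42 FPKM), which passed 1 FPKM when replicate 3 was left out. The highest keratinocyte markers were *Krt10* (0.49 ± 0.191 FPKM), *Krt5* (0.02333) and *Krt14* (0.01), and the highest pericyte markers *Notch3* (0.3533 ± 0.0907), *Pdgfrb* (0.08333) and *Rgs5* (0.02333). The endothelial markers *Kdr*, *Pecam1* and *Cdh5* had at most 0.01333 FPKM. The defining markers *Trp63*, *Krt1*, *Dsg3*, *Abcc9*, *Kcnj8*, *Tek*, *Ptprc* and *Cd3e* were listed at 0. Of 7 fibroblast markers, 1 passed (*Col1a1*, 1.537 ± 0.221 FPKM), followed by *Col3a1* (0.1067) and *Pdgfra* (0.07667), with a sum of 1.62 to 1.97 FPKM and *Lum* at 0. Of 6 Schwann and glial markers, 4 passed, among them *Cdh19* (27.95 ± 13.5 FPKM), and the list summed to 102 to 180 FPKM. Among all genes in the files, 44.1% were at 1 FPKM or more in every replicate. Whether other cells had a part in any level given here was not tested.

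The 10 genes differed widely in level, from rank 126 to rank 12863 of 22698. *Gpc1* and the 4 syndecans were expressed at 21.58 FPKM or more, *Gpc6*, *Cspg4* and *Cspg5* lay near 1 FPKM, and *Gpc4* and *Gpc3* rested on fewer than 10 reads per replicate. Of the 10 genes, 6 (60%) were at 1 FPKM or more in every replicate, against 44.1% of all genes in the files. *Cspg4* fell short of this level only in replicate 4, and 7 of the 10 passed when that replicate was left out. The median over the 10 means was 14.5 FPKM, beside 0.277 FPKM over all genes. Summed over the 10 genes, replicates 1, 3 and 4 held 675.8, 763.4 and 494.9 FPKM. Glypicans supplied 52.1 to 57.8% of this sum, syndecans 41.9 to 47.7% and the *Cspg* pair at most 0.314%.

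**Figure D1:**
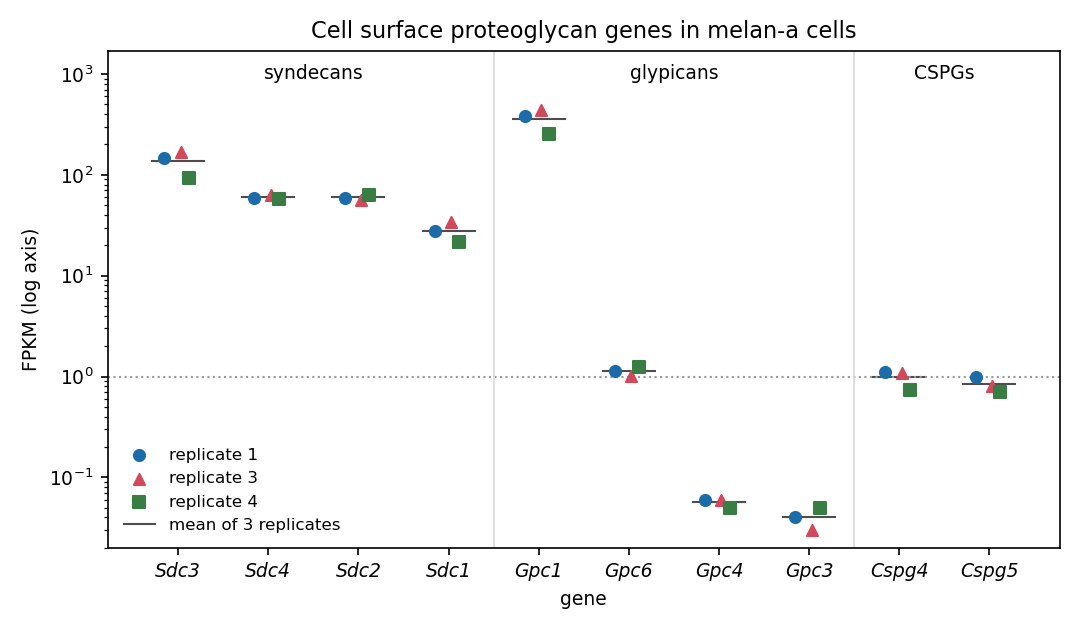
Level of each of the 10 genes in FPKM (log axis) by family, with 1 point per replicate and a bar at the mean of the 3 replicates. The dotted line marks 1 FPKM. *Gpc1* and the 4 syndecans lie at 21.58 FPKM or above in every replicate, *Gpc6*, *Cspg4* and *Cspg5* around the dotted line, and *Gpc4* and *Gpc3* at 0.03 to 0.06 FPKM.

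*Sdc3* was the highest syndecan gene. SDC3 (N-syndecan) is best known from the nervous system and has the longest extracellular part of the family. The gene (ENSMUSG00000025743) is on chromosome 4 (130348452 to 130382234, plus strand). This and all following positions of genes are in the mm9 build. It had 146.76, 166.6 and 93.74 FPKM in replicates 1, 3 and 4, a mean of 135.7 ± 37.7 FPKM (SD, n = 3) at rank 397 of 22698 genes. Replicate 4 was the low one, and its value still lay above every value of the other syndecans. *Sdc3* made up 50.2% and 52.1% of the summed syndecan level in replicates 1 and 3 and 39.7% in replicate 4.

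*Sdc4* and *Sdc2* followed at the same level. SDC4 is a widespread syndecan of focal adhesions, and SDC2 (fibroglycan) is typical of mesenchymal cells. *Sdc4* (ENSMUSG00000017009, chromosome 2, 164249747 to 164269387, minus strand) had 58.3, 62.81 and 57.9 FPKM in replicates 1, 3 and 4, a mean of 59.67 ± 2.73. *Sdc2* (ENSMUSG00000022261, chromosome 15, 32850478 to 32964485, plus strand) had 59.45, 56.76 and 62.63 FPKM, a mean of 59.61 ± 2.94. They took ranks 1111 and 1112. *Sdc4* was the higher of the pair in replicate 3 and *Sdc2* in replicates 1 and 4, and their ranges overlapped.

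*Sdc1*, the syndecan typical of epithelia and plasma cells, was the lowest of the family and still ranked 2449. The gene (ENSMUSG00000020592) is on chromosome 12 (8778129 to 8800521, plus strand). Its values were 28.03, 33.9 and 21.58 FPKM in replicates 1, 3 and 4, with a mean of 27.84 ± 6.16. The highest of these was below the lowest value of *Sdc2*, so the ranges did not overlap.

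The ratio of neighbours in the order was taken within each library, because all genes were measured in the same 3 libraries. *Sdc3* exceeded *Sdc4* by 2.52, 2.65 and 1.62 times in replicates 1, 3 and 4, a mean log2 ratio of 1.14 ± 0.39 (SD, n = 3). *Sdc2* exceeded *Sdc1* by 2.12, 1.67 and 2.9 times, a mean log2 ratio of 1.12 ± 0.4. Between *Sdc4* and *Sdc2* the ratio was 0.981, 1.11 and 0.924, and the pair did not differ beyond its spread. An exact two-sided sign-flip permutation test on 3 replicates cannot go below p = 0.25. This exact test gave p = 0.25 for the first and second pair and p = 1 for the last, with Benjamini-Hochberg values of 0.35, 0.35 and 1 over the 7 neighbouring pairs of the 3 families.

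Sequences upstream of the annotated start were given in a RefSeq table for 6 of the 10 genes, *Sdc1*, *Sdc3*, *Sdc4*, *Gpc3*, *Gpc4* and *Cspg4*, in build GRCm38.p6. The 250 bases before the start are printed for *Sdc3* (chr4:130792287-130792536, plus strand), the highest of the 6, and for *Gpc3* (chrX:52613975-52614224, minus strand), the lowest. Capitals mark matches to GCCNNNGGC, a palindrome that reads the same on both strands and to which TFAP2 proteins, the factors studied with these cells, bind.

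Sdc3: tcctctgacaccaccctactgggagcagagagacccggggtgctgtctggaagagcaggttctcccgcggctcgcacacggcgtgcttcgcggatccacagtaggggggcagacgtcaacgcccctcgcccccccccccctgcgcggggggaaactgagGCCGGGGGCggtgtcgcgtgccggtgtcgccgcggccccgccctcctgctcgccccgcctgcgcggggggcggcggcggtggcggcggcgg

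Gpc3: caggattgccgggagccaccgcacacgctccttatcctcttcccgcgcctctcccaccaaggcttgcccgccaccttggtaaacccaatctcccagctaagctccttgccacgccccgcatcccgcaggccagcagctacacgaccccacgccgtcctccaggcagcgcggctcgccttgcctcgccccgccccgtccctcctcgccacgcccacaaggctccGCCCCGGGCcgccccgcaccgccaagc

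Both stretches are rich in CpG pairs, with 32 in *Sdc3* and 25 in *Gpc3*, and each holds 1 match. Over all 32851 promoters of the table the median was 6 CpG pairs, 37.8% had 10 or more, and 13.7% held the motif. *Gpc4* also had 1 match and 18 CpG pairs, whereas *Sdc1* (10 CpG pairs), *Sdc4* (19) and *Cspg4* (12) had no match. All 6 stretches thus had 10 or more CpG pairs, and the 13.7% is not a share of promoters of like composition. The TFAP2A consensus in the paper, GCCNNNGG, is shorter by 1 base, and its share over all promoters was not computed here. The stretches of *Sdc1*, *Sdc4* and *Cspg4* do hold this shorter form on 1 strand or the other. The contrast between genes with and without a match thus belongs to the longer motif only. The E-box CACGTG, also a palindrome and bound by MITF, was in none of the 6 and in 6.02% of all promoters. At that share 6 promoters are too few to show a lack of it. The M-box, a further MITF site that the paper searched in TFAP2A peaks, was not searched here. A match is a run of letters and not a measured binding site, and genes of very different levels shared it here.

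Glypican expression in these cells was almost wholly *Gpc1*. GPC1 is the glypican of nerve and many adult tissues and a co-receptor for fibroblast growth factors. The gene (ENSMUSG00000034220) is on chromosome 1 (94728222 to 94756775, plus strand). Its values were 379.95, 440.29 and 256.27 FPKM in replicates 1, 3 and 4, a mean of 358.8 ± 93.8 (SD, n = 3). This was the highest level of the 10 genes, at rank 126 of 22698. Replicate 4 was again the low one, and its value lay above every value of *Sdc3*. *Gpc1* made up 99.5 to 99.8% of the summed level of the 4 glypicans. Its single annotated transcript of 3595 bases carried 61082 to 74235 reads, so counting error was small beside the spread between replicates.

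*Gpc6*, a glypican known from skeletal growth, lay far below. It (ENSMUSG00000058571, chromosome 14, 117324519 to 118378751, plus strand) had 1.13, 1.01 and 1.24 FPKM in replicates 1, 3 and 4, a mean of 1.127 ± 0.115. These values correspond to 573, 447 and 775 reads on 9428 bases of joined exons. *Gpc1* exceeded *Gpc6* by 336, 436 and 207 times in replicates 1, 3 and 4, a mean log2 ratio of 8.16 ± 0.53.

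*Gpc4* and *Gpc3* were near the limit of detection. GPC4 is found in brain and kidney, and GPC3 is an embryonic glypican that restrains growth and reappears in liver cancer. They are neighbours on the minus strand of the X chromosome, with *Gpc4* (ENSMUSG00000031119) from 49406198 to 49518429, *Gpc3* (ENSMUSG00000055653) from 49625603 to 49967127 and 107173 bases between them. *Gpc4* had 0.06, 0.06 and 0.05 FPKM in replicates 1, 3 and 4, which come to 9, 7 and 9 reads. *Gpc3* had 0.04, 0.03 and 0.05 FPKM, or 6, 4 and 9 reads. The 95% exact Poisson intervals reached from 2.81 to 17.1 reads for *Gpc4* and from 1.09 to 17.1 reads for *Gpc3*, and cover counting error only. The values are rounded to 2 decimals, which by itself leaves a read count of either gene uncertain by up to 0.89 reads. All 6 values lay above the 0.017 to 0.024 FPKM that 3 reads give.

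*Gpc6* exceeded *Gpc4* by 18.8, 16.8 and 24.8 times in replicates 1, 3 and 4, and their ranges did not overlap. The mean log2 ratio of 2.97 ± 0.18 on the scale of FPKM + 0.1 understates this, since *Gpc4* lies below the added 0.1, and it was 1.01 with 1 FPKM added. *Gpc4* and *Gpc3* were equal in replicate 4, and their ranges overlapped. The exact sign-flip permutation test gave p = 0.25 for *Gpc1* against *Gpc6* and for *Gpc6* against *Gpc4*, the smallest that 3 replicates allow, and p = 0.5 for *Gpc4* against *Gpc3*, with Benjamini-Hochberg values of 0.35, 0.35 and 0.583. The family has a pair of further members. *Gpc2* had 0.29, 0.28 and 0.33 FPKM in replicates 1, 3 and 4, but 38.8% of its exon bases are shared with *Gal3st4* on the same strand, so its reads are uncertain. *Gpc5*, which lies 400859 bases before *Gpc6* on chromosome 14, had 0.01 FPKM in replicate 1, or 1 read, and was listed at 0 in replicates 3 and 4.

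The chondroitin sulfate proteoglycan genes were both near 1 FPKM. *Cspg4* (ENSMUSG00000032911) is on chromosome 9 (56712911 to 56747677, plus strand). It had 1.12, 1.09 and 0.73 FPKM in replicates 1, 3 and 4, a mean of 0.98 ± 0.217 (SD, n = 3) at rank 10251. On 8050 bases of exon this came to 485, 412 and 390 reads, with 95% exact Poisson intervals, for counting error only, of 443 to 530, 373 to 454 and 352 to 431 reads. *Cspg5* (ENSMUSG00000032482), also on the plus strand of chromosome 9, from 110146287 to 110165079, had 1, 0.81 and 0.71 FPKM in replicates 1, 3 and 4, a mean of 0.84 ± 0.147 from 208, 147 and 182 reads. *Cspg4* was the higher in 3 of 3 replicates, by 1.12, 1.35 and 1.03 times, but the ranges of the pair overlapped (mean log2 ratio 0.19 ± 0.18, exact sign-flip permutation p = 0.25, Benjamini-Hochberg value 0.35).

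**Figure D2:**
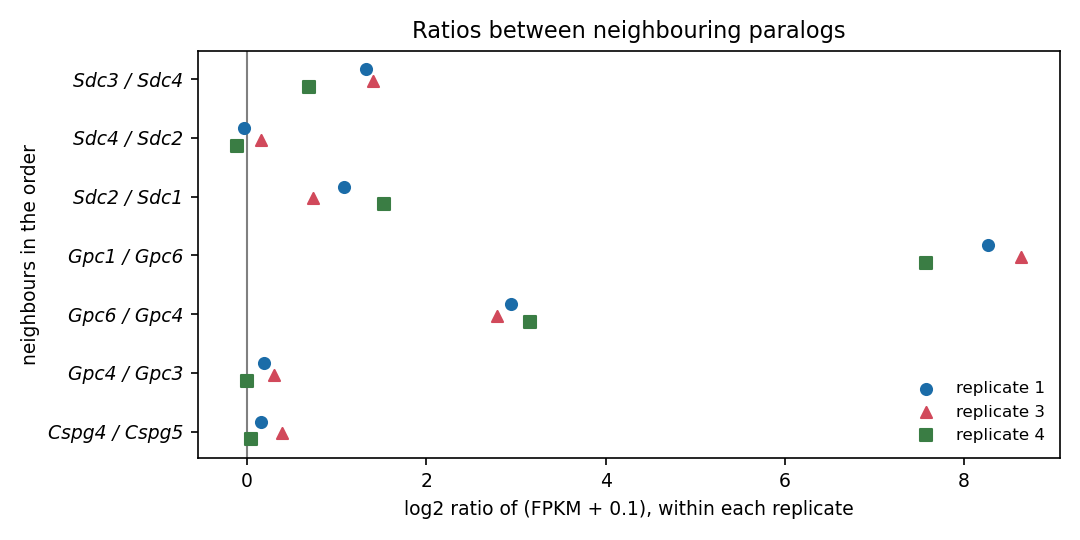
Log2 ratio of FPKM + 0.1 between neighbours in the order of each family, with 1 point per replicate and a vertical line at equal levels. *Gpc1* / *Gpc6* stands at 7.58 to 8.63 and *Gpc6* / *Gpc4* at 2.79 to 3.16, whereas *Sdc4* / *Sdc2* lies on both sides of the line and *Gpc4* / *Gpc3* and *Cspg4* / *Cspg5* lie close to it.

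Over all 10 genes the order of mean levels was *Gpc1*, *Sdc3*, *Sdc4*, *Sdc2*, *Sdc1*, *Gpc6*, *Cspg4*, *Cspg5*, *Gpc4* and *Gpc3*. *Gpc1* exceeded *Sdc3* by 2.59 to 2.73 times within a replicate, with both genes low in replicate 4. *Sdc1* exceeded *Gpc6* by 17.4 to 33.6 times, and *Cspg5* exceeded *Gpc4* by 13.5 to 16.7 times. Neighbours whose ranges overlapped were *Sdc4* and *Sdc2*, *Gpc6* and *Cspg4*, *Cspg4* and *Cspg5*, and *Gpc4* and *Gpc3*, although *Cspg4* was the higher of its pair with *Cspg5* in 3 of 3 replicates.

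Replicates differed in the same way for several of the genes. In replicate 3 against replicate 4, *Sdc3* was higher by 1.78 times, *Gpc1* by 1.72 times and *Sdc1* by 1.57 times. Of the 6 genes at 1 FPKM or more in every replicate, these 3 passed 1.5 times in this direction, against 6.39% of the 10011 genes at that level. None passed it in the other direction, against 12.2%. With 1 library on each side this is a description of the pair of libraries, not a test. The 3 genes have transcripts of 58.7%, 60.5% and 55.2% GC, and the median log2 ratio of expressed genes at the same GC content was 0.44, 0.54 and 0.28, beside 0.83, 0.78 and 0.65 for the genes themselves. *Sdc2*, with 42.4% GC, had a log2 ratio of -0.14, where genes of its GC content stood at -0.46. Over the 10 genes Spearman's rho between GC content and this log2 ratio was 0.84, a description across genes that share the same pair of libraries. The ratios of *Gpc3* and *Gpc4* within it rest on at most 9 reads per replicate.

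After each replicate was adjusted for this trend, no member differed by 1.5 times between replicates 3 and 4. The coefficient of variation over the 3 replicates fell for 8 genes and rose for 2. The 8 include *Gpc4* and *Gpc3*, which rest on at most 9 reads per replicate and lie below the 0.1 FPKM added before the adjustment. For *Gpc1* it went from 26.1% to 8.94%, for *Sdc3* from 27.8% to 14.8% and for *Sdc1* from 22.1% to 12.6%. For *Sdc2* it rose from 4.93% to 11.2% and for *Sdc4* from 4.57% to 6.49%. Apart from *Sdc4* and *Sdc2*, whose log2 ratio stayed near 0, the order within the families was kept. The adjustment works on each gene's departures from its own mean over the replicates, so mean ratios between genes could hardly move. The kept order is therefore no test of a GC effect that all replicates share.

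**Figure D3:**
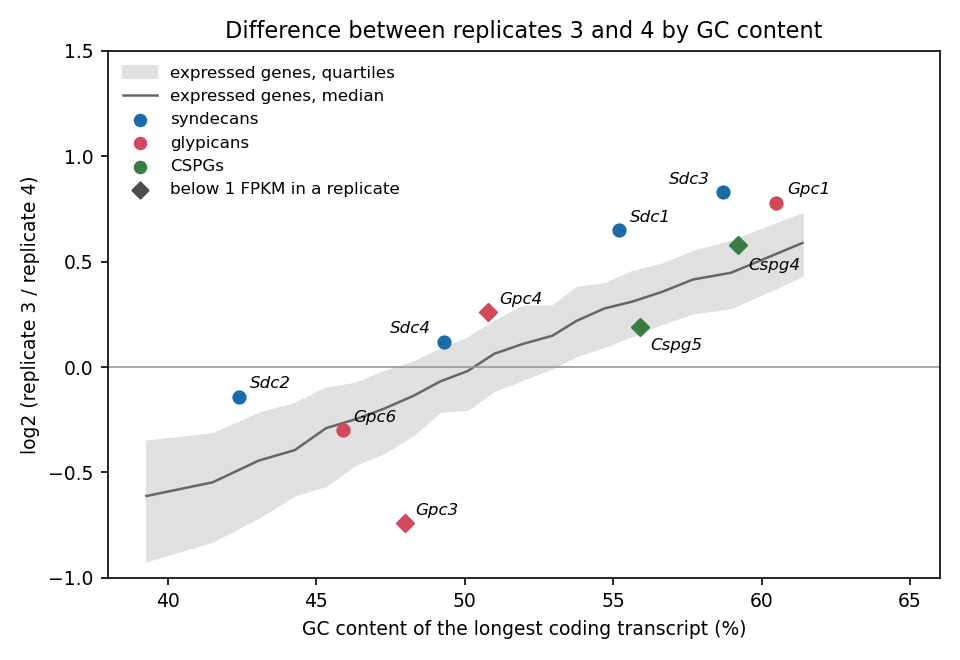
Log2 ratio of replicate 3 to replicate 4 against the GC content of the longest coding transcript (%) for the 10 genes, colored by family, with the median and quartiles of 10006 expressed genes in 20 bins of GC content behind them. Diamonds mark genes below 1 FPKM in at least 1 replicate. The 4 syndecans, *Gpc1* and *Gpc4* lie above the gray band, *Cspg4*, *Cspg5* and *Gpc6* within it, and *Gpc3* below it. *Gpc3* rests on 4 and 9 reads and *Gpc4* on 7 and 9 reads.

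The encoded proteins were compared in translated transcripts of the mm9 annotation. Glycosaminoglycan chains are attached to serines that are followed by glycine. A pair counted here is a run of letters and not a measured attachment site, and whether it carries a chain was not tested. SDC3 was the longest syndecan, with 442 residues and 8 serine-glycine pairs, and SDC1 had 311 residues and 5 pairs. SDC2 and SDC4, whose genes had the same level, were also alike in size, with 202 and 198 residues and 3 pairs each, all within the first 100 residues. Between whole syndecans, matched residues came to 37.6 to 41.4% of the length of the shorter protein. Over the last 60 residues, where the membrane span and the cytoplasmic tail lie, they came to 53.3 to 76.7%. The highest value in this tail was that of SDC2 and SDC4. The last 4 residues, which bind PDZ domains, were identical in all 4 syndecans.

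The glypicans were of nearly one length, from 557 residues in GPC1 and GPC4 to 579 in GPC3, with 17 to 19 cysteines. Of the listed glypicans GPC1 had the most serine-glycine pairs, 6, of which 3 lay in the last 100 residues, beside 2 of 2 in GPC3, 4 of 4 in GPC4 and 4 of 5 in GPC6. GPC4 and GPC6 were the most alike, with 64.6% identity, and GPC1 shared 47% with GPC6, 43.3% with GPC4 and 24.8% with GPC3. The closest listed relatives of GPC1 by sequence are thus encoded by genes of 1.127 and 0.05667 FPKM. CSPG4 was the largest protein, with 2327 residues and 12 serine-glycine pairs, and CSPG5 had 566 residues and 3 pairs. The pair shared 24.9% of the residues of the shorter protein in an alignment. No value for unrelated proteins of these lengths was computed, so relatedness of the pair cannot be read from it.

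**Figure D4:**
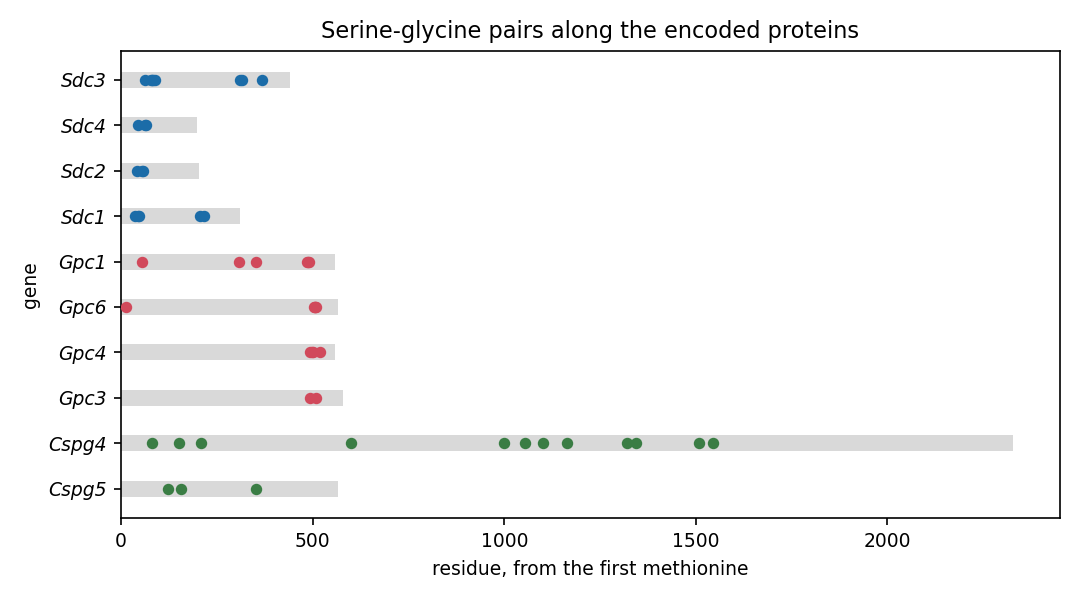
Serine-glycine pairs (points, colored by family) along each encoded protein (gray bar), by residue counted from the first methionine. SDC2 and SDC4 carry their 3 pairs near the start, GPC3, GPC4 and GPC6 carry most of theirs in the last 100 residues and GPC1 3 of 6, and the 12 pairs of CSPG4 are spread from residue 80 to 1546 of 2327.

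Genes that make the chains were expressed along with the core proteins. All chains start on a linker of 4 sugars, and of 7 genes for this linkage region all 7 were at 1 FPKM or more in every replicate, with a median of 10.6 FPKM. The highest were *Fam20b* (37.14 ± 2.94 FPKM), a kinase for the first sugar, *B3gat3* (31.55 ± 6.48), which adds the last, and *Xylt1* (18.03 ± 1.41), which starts the chain. The exostosin family acts in heparan sulfate synthesis and is listed here under polymerisation, although not every member need be a polymerase. All 5 of its genes passed as well, against 44.1% of all genes in the files, with a median of 13.8 FPKM. They were led by *Extl3* (46.74 ± 6.99), *Ext2* (43.63 ± 5.38) and *Extl1* (13.79 ± 1.82).

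Of 16 genes for enzymes that modify heparan sulfate, 6 (37.5%) passed 1 FPKM in every replicate, against 44.1% of all genes in the files. Another 6 were listed at 0, and the median was 0.148 FPKM. The highest were the 2-O-sulfotransferase *Hs2st1* (49.46 ± 5.75 FPKM), *Ndst1* (41.69 ± 8.88), which starts sulfation by replacing acetyl groups, and the 6-O-sulfotransferase *Hs6st1* (12.27 ± 3.03). Each of these steps had at least 1 expressed gene. Of the 7 3-O-sulfotransferases, grouped after their values were seen, none passed, 4 were listed at 0 and the highest mean was 0.25 FPKM. Of 4 genes for trimming of the chain 2 (50%) passed, with a median of 1.94 FPKM. The extracellular 6-O-endosulfatase *Sulf2* had 97.59 ± 12.3 FPKM, its paralog *Sulf1* was listed at 0, and heparanase (*Hpse*), which cuts the chain, had 3.85 ± 0.201, while *Hpse2* had 0.02667 ± 0.0289.

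For chondroitin and dermatan sulfate, 11 of 16 genes (68.8%) passed, with a median of 3.45 FPKM. The highest were the polymerising factor *Chpf* (71.52 ± 20.7 FPKM), the 4-O-sulfotransferase *Chst12* (48.99 ± 4.94) and the dermatan 4-O-sulfotransferase *Chst14* (21.73 ± 1.55). Each of these 3 lay above *Cspg4* and *Cspg5* in every replicate. Of 8 genes that supply sugar nucleotides and activated sulfate 7 passed, with a median of 20.2 FPKM, led by *Ugdh* (66.82 ± 7.44), which makes UDP-glucuronic acid, *Slc35b2* (54.05 ± 10.9), the Golgi carrier of activated sulfate, and *Papss1* (51.61 ± 4.69), which makes it. Over all genes in the files the share at this level was 44.1%.

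**Figure D5:**
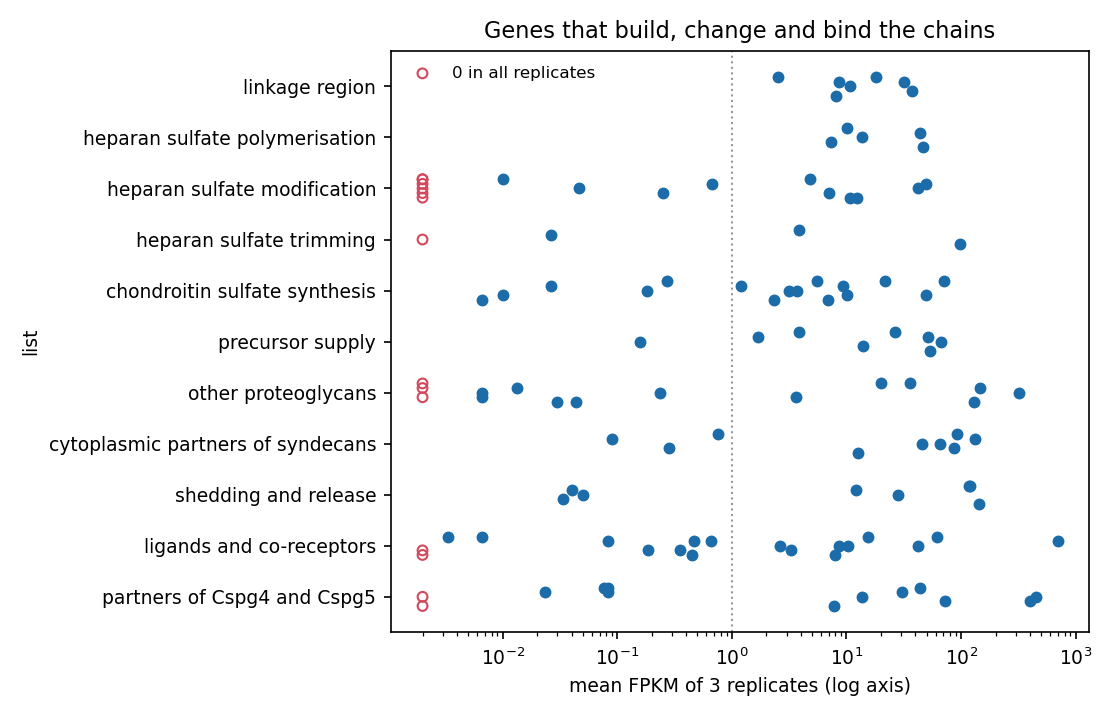
Mean FPKM over 3 replicates (log axis) of the genes in 11 lists, with 1 point per gene and open circles at the left edge for genes at 0 in all replicates. The dotted line marks 1 FPKM. All genes listed for the linkage region and for heparan sulfate polymerisation lie to its right, whereas 10 of 16 genes for heparan sulfate modification lie to its left.

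Of 15 genes for other proteoglycans 6 (40%) passed 1 FPKM in every replicate, near the 44.1% of all genes in the files, with a median of 0.0433 FPKM. The basement membrane proteoglycans perlecan (*Hspg2*, 319.5 ± 91.5 FPKM) and agrin (*Agrn*, 145.2 ± 35) and the hyaluronan receptor *Cd44* (128.4 ± 8.22) were the highest, while *Acan*, *Lum* and *Ptprz1* were listed at 0. *Hspg2* had 342.97, 397.08 and 218.59 FPKM in replicates 1, 3 and 4, below *Gpc1* in 3 of 3 replicates, and shared its low value in replicate 4.

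Of 9 genes for cytoplasmic partners of syndecans 6 (66.7%) passed, against 44.1% of all genes in the files, with a median of 45.9 FPKM. The highest were *Cttn* (132.8 ± 2.94 FPKM), the actin-binding protein cortactin, *Sdcbp* (92.72 ± 3.15), the PDZ scaffold syntenin that binds the syndecan tail, and *Gipc1* (86.19 ± 17.6), another PDZ protein. Of 8 genes for shedding and release 5 (62.5%) passed, with a median of 20.1 FPKM. The membrane metalloproteinase *Mmp14* (143.8 ± 11.6), the sheddase *Adam10* (120.3 ± 22.9) and the gelatinase *Mmp2* (118 ± 8.02) led this list, and the glypican-releasing lipase *Notum* had 0.06, 0.01 and 0.08 FPKM.

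Of 19 ligands and co-receptors 9 (47.4%) passed, near the 44.1% of all genes in the files, with a median of 0.66 FPKM. Fibronectin (*Fn1*, 694.5 ± 30.9 FPKM), which binds syndecans, was the highest, followed by *Fgf1* (62.16 ± 5.34), a heparin-binding growth factor, and *Met* (41.95 ± 4.86), the receptor for hepatocyte growth factor, whose own gene *Hgf* was listed at 0 together with *Ptn*, the gene for pleiotrophin. Of 13 partners of *Cspg4* and *Cspg5* 7 (53.8%) passed, with a median of 7.74 FPKM. The highest were the integrin *Itgb1* (452.8 ± 40.8), galectin-3 (*Lgals3*, 397.3 ± 63.4) and the neuregulin receptor *Erbb3* (72.93 ± 4.6), while the scaffold *Grip1* and plasminogen (*Plg*) were listed at 0.

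Genes with the most similar values were found by the distance over log2(FPKM + 0.1) in the 3 replicates. For *Gpc1* they were *Col4a2*, a chain of basement membrane collagen, at a distance of 0.079, and *Flna*, an actin crosslinker, at 0.142. For *Sdc3* they were *Atf5*, a transcription factor, at 0.096 and *2310044H10Rik* at 0.112, and for *Sdc4* *Tbrg1* at 0.032 and *Mthfd1l* at 0.053. The measure rests on 3 libraries of 1 condition, so genes of one level that shared the low value of replicate 4 came out as alike. The transcripts of *Col4a2*, *Atf5* and *2310044H10Rik* have 60.6%, 61.6% and 60.7% GC, beside 60.5% for *Gpc1* and 58.7% for *Sdc3*, whereas that of *Flna* has 54%.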

How the data were processed

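Stranded mRNA libraries of melan-a cells, 3 replicates of 1 group, were examined. The authors trimmed 10 bases from each read, aligned the rest to mm9 with STAR 2.3.0e, removed rRNA reads and counted with htseq-count 0.5.3p3 on Ensembl release 67. They deposited FPKM values, scaled by TMM and rounded to 2 decimals. How counts became FPKM is not given in the sources used here, and FPKM is not a count, so no count test was run.

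Symbols, positions and lengths came from GENCODE vM1 (mm9, Ensembl release 65), which held 22324 of the 22698 genes. *Pxylp1* was matched through its synonym *Acpl2*. Library sizes were the values at which FPKM, multiplied by the length of joined exons, came nearest to whole reads, in single-transcript genes of up to 500 bases. The mean distance was 0.047, 0.049 and 0.048 reads in replicates 1, 3 and 4, over 90, 134 and 60 genes. In genes with more transcripts joined exons gave 0.054 and the longest transcript 0.153, over 11 values. The log2 scale used FPKM + 0.1. The GC trend was a running median over 500 expressed genes. Intervals are 95% exact Poisson intervals.

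The members and the 19 gene lists were chosen with earlier results of these data known, and 4 genes stand in 2 lists. Named were all 10 members, the other glypicans, the 3 highest genes of each list, genes at 0 where a list had at most 5, and the 2 genes most alike in level for each of the 3 highest members. Some marker genes that this rule names are not reported here. *Kit* and *Notum* were named after their values were seen. Proteins were translated from GENCODE transcripts and aligned with BLOSUM62. Identity is the number of matched residues over the length of the shorter protein. Functions were checked on simulated data. Python 3.11.15, numpy 2.4.6, pandas 2.3.3, scipy 1.17.1, Biopython 1.88 and matplotlib 3.10.9 were used.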

Additional observations from a re-analysis of the deposited data

How the results depend on the processing

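Over the alternatives for the 7 neighbouring pairs, 47 values kept the direction and 2 did not. Both were of *Sdc4* against *Sdc2*, with a log2 ratio of 0.00155 that went to -0.0706 without replicate 3, the lowest of a range up to 0.0589 with 1 replicate left out, and to -0.00108 after GC adjustment. Rescaling and the other pseudocount cannot change which gene is higher within a replicate, and GC adjustment leaves mean ratios nearly fixed. Directions kept under these settings are thus no support for the order. No alternative could reach a p below 0.25. The count of members past 1.5 times between replicates 3 and 4 went from 3 to 0 at 2 times and to 0 after GC adjustment, and adjustment by construction takes out the part that follows GC content. The 6 of 10 members at 1 FPKM became 8 at 0.3 FPKM, 5 at 3 FPKM, 8 after rescaling and 7 without replicate 4. At 3 FPKM the fibroblast list held 0 genes and the Schwann and glial list 2. At 0.3 FPKM the immune list held 1, and with a replicate left out it held 0 or 1 (1 without replicate 3). No share of all genes is given for these other settings, so these counts have no background beside them. Rescaling each replicate to a sum of 1000000 moved all 10 mean levels, since it changes the unit. No paired analysis was possible because all samples are of 1 group, so no replicate number is shared between groups, and only ratios between genes were paired, by library. Depth limits *Gpc3*, *Gpc4* and *Gpc5*, with at most 9 reads per replicate.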
